A study of Arabidopsis thaliana with 9 samples.

Results

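The genes of the chloroplast genome of Arabidopsis thaliana were followed across leaf, stamens and gynoecium. They were taken as the loci whose identifier starts with ATCG and whose counts summed to at least 10 over the 9 libraries, which gave 109 genes of 32833 in the count table. Of the 133 ATCG loci, 13 had no count in any library and 11 had between 1 and 9. Just outside the minimum lay one copy of rpl23 and the transfer RNA locus ATCG00990, both with a summed count of 7, and just inside lay the other copy of rpl23 with 12. All libraries came from accession Col-0 with no transgene or treatment named, and all 9 carry the same stage label, flower bud differentiation. The series sets 3 libraries of stamens (labelled male), 3 of gynoecium (labelled female) and 3 of leaf side by side, and its design text speaks of male and female gametophytes. Per the labels' protocol the material was leaf and immature floral buds, so every level is an average over all cell types of an organ. Separate plants are not named for the libraries within a tissue, and p-values therefore measure only the spread between these libraries.

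The chloroplast genome descends from that of a cyanobacterium and keeps a small set of genes. Many encode core subunits of the photosynthetic complexes of the thylakoid membrane. Most of the others encode the machinery that expresses the genome itself: subunits of an RNA polymerase of bacterial type, ribosomal proteins, ribosomal RNAs and transfer RNAs. In leaf mesophyll the plastids are green chloroplasts, whereas pollen and ovule cells mostly hold plastids that are not green. A plastid-encoded polymerase, which needs nuclear sigma factors, transcribes most photosynthesis genes. A nuclear-encoded polymerase of phage type transcribes, among others, the genes of the plastid-encoded polymerase itself. Genes lie in clusters that are transcribed together and then cut, spliced, trimmed and edited.

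The deposited tables give only locus identifiers, and these were paired with gene names through length. Each locus has a length implied by its count and its FPKM (a count per kilobase of length, scaled to library size), and 60 genes had a length that only one gene of the reference chloroplast genome shares. A further 13 were copies in the inverted repeat that have the same length (rpl2, rpl23, rps7, ycf2 and the 16S, 23S and 4.5S ribosomal RNAs). For 27 genes the length fits several genes and for 9 it fits none, and these are called by their identifier. ATCG00020 and ATCG00270 have one length, that of psbA and of psbD, which encode the D1 and D2 proteins at the core of photosystem II. Length alone does not tell which is which. In the reference psbD shares 53 bases with psbC (ATCG00280), and ATCG00270 is the identifier just before psbC, but names were not taken from identifier order. Reads from the repeat copies, from short transfer RNA genes and from genes that overlap cannot be assigned with certainty. How the authors counted such reads and reads with several matches, whether strand was used and whether poly(A) RNA was selected are not given in the sources used here.

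Library totals ran from 16042169 to 18756860 counts. Spearman correlations between libraries of a tissue were 0.996 to 0.998, against 0.748 at most between tissues. Tissue labels fitted their markers. The stamen identity gene PISTILLATA (PI) averaged 775 CPM (counts divided by library size, which was scaled by TMM) in stamens, 7.75 in gynoecium and 0 in leaf. The ovule gene SEEDSTICK (STK) averaged 98.2 in gynoecium, 0.332 in stamens and 0 in leaf. The pollen proton pump gene AHA9 averaged 1699.6 in stamens and 0 in gynoecium, with 1 count in one leaf library. Of 4 nuclear markers of green leaf cells (RBCS1A, LHCB2.1, CA1 and GLDP1), 4 were lower than leaf in both organs and none was at 0. Their summed level was 10632 to 11465 CPM in leaf, 463 to 493 in stamens and 395 to 458 in gynoecium, and their part in the results on chloroplast genes was not tested. In such bulk libraries fewer plastids or green cells and less RNA per plastid cannot be told apart.

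Chloroplast genes took 5.91, 5.86 and 5.94% of all counts in the 3 leaf libraries, 0.911, 0.905 and 0.901% in stamens and 0.928, 0.935 and 0.921% in gynoecium. The leaf share was 6.52 times that of stamens and 6.36 times that of gynoecium, and by library totals the floral organs lay close together. These shares leave out the TMM factors, which were 0.955 to 0.965 in stamens and 1.27 to 1.28 in gynoecium. With those factors gynoecium levels come out lower relative to both stamens and leaf. The make-up of the chloroplast counts in the floral organs was not alike. The genes psaA and psaB encode the paired core proteins of photosystem I. Of the chloroplast counts, both together took 57.2 ± 0.0586% (SD, n = 3) in leaf, 50.0 ± 0.351% in stamens and 28.4 ± 0.116% in gynoecium. Both genes are long, and of the summed FPKM they took 22.4, 17.4 and 8.05%. The remaining 107 genes took 2.53% of everything counted in leaf, 0.453% in stamens and 0.665% in gynoecium. On this smaller set, again by library totals, gynoecium stood above stamens in every library, with 0.659 to 0.670% against 0.449 to 0.458%.

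The make-up of the chloroplast counts does not depend on how libraries are scaled to each other. The 34 genes assigned to photosynthesis took 78.6 ± 0.216% of it in leaf, 66.3 ± 0.198% in stamens and 45.0 ± 0.164% in gynoecium. ATCG00020 and ATCG00270, each psbA or psbD, are among them. The 21 members without an assigned group took 9.27, 12.5 and 16.3%, and include ATCG00140 and ATCG01060, each atpH or psaC. The 23 named loci of the RNA polymerase and the ribosome moved opposite to the photosynthesis genes, with 5.84 ± 0.0140%, 11.5 ± 0.139% and 21.7 ± 0.221%. Both repeat copies of rpl2 and of rps7 are among these 23 loci, and the later counts of expression genes also count these copies separately. Without psaA and psaB in the sum, photosynthesis genes took 50.1, 32.5 and 23.2% and expression genes 13.6, 22.9 and 30.2%, in the same order of tissues. Of the summed FPKM photosynthesis genes took 55.5, 44.8 and 34.1% and expression genes 8.05, 13.7 and 20.7%. A single gene, the longer ycf1 locus ATCG01130, went from 1.50% in leaf to 4.52% in stamens and 11.3% in gynoecium. Its share of the summed FPKM was smaller, with 0.246, 0.659 and 1.34%. Ycf1 belongs to the protein import apparatus of the inner envelope membrane. None of these shares overlapped between tissues. With 3 libraries against 3, an exact permutation test cannot give a two-sided p under 0.1, so no share has a test that could pass 0.05.

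**Figure D1:**
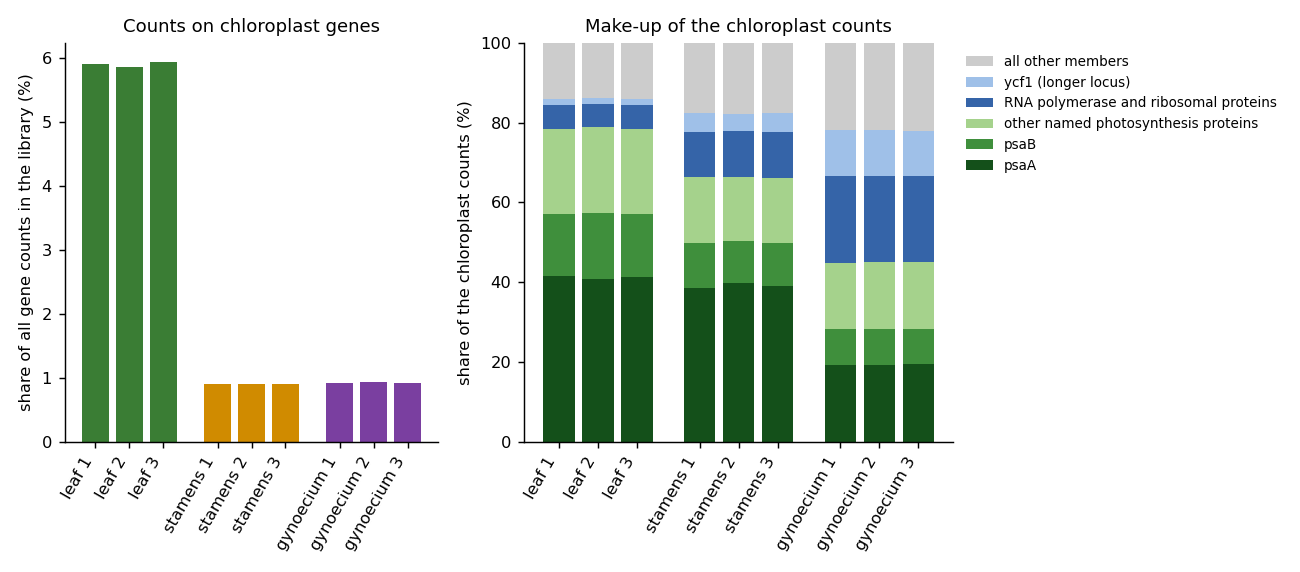
Left, share of all gene counts on chloroplast genes in each library, in percent. Right, the chloroplast counts of each library divided among psaA, psaB, other named photosynthesis proteins, RNA polymerase and ribosomal proteins, the longer ycf1 locus and all other members. ATCG00020 and ATCG00270 are counted with the named photosynthesis proteins. Leaf libraries sit near 5.9% and floral ones near 0.9%, and from leaf to gynoecium the psaA and psaB blocks shrink while the expression genes and ycf1 widen.

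Stamens against leaf asks how far the plastid genome's transcripts differ between a male organ and green tissue. All 99 chloroplast genes with enough counts for edgeR's quasi-likelihood test were lower in stamens at a Benjamini-Hochberg adjusted p under 0.05, and 0 were higher. Over all 20827 genes tested, 87.9% were called, 37.9% lower and 50.0% higher. The median log2 change of the members was -2.93, a 7.64-fold fall, against 0.23 for all genes. In gynoecium against leaf, 97 of the 99 were lower and 0 higher, with a median of -2.89, against 82.6% called over all genes, 40.0% lower and 42.6% higher, and a median of 0.00 over all genes. The share of all calls that were higher went from 51.6% with TMM to 67.3% with library totals alone. The other two were the transfer RNA locus ATCG00390 (log2 change -0.18, adjusted p = 0.068) and the shorter ycf1 locus ATCG01000 (-0.39, adjusted p = 0.13). Both comparisons share the leaf libraries and are not independent of each other. Among the 99, ndhK, trnY and ATCG01200 had 73, 65 and 207 counts in leaf, 6, 8 and 1 in stamens and 0, 1 and 3 in gynoecium. They passed the count filter only through leaf, where they are high, so their calls as lower are no support. Which other members did so was not counted.

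Of the 10 members that could not be tested, the summed counts were 12 to 55. They were rps14, psbL, one copy of rpl23, both copies of the 4.5S ribosomal RNA and 5 transfer RNA loci.

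**Figure D2:**
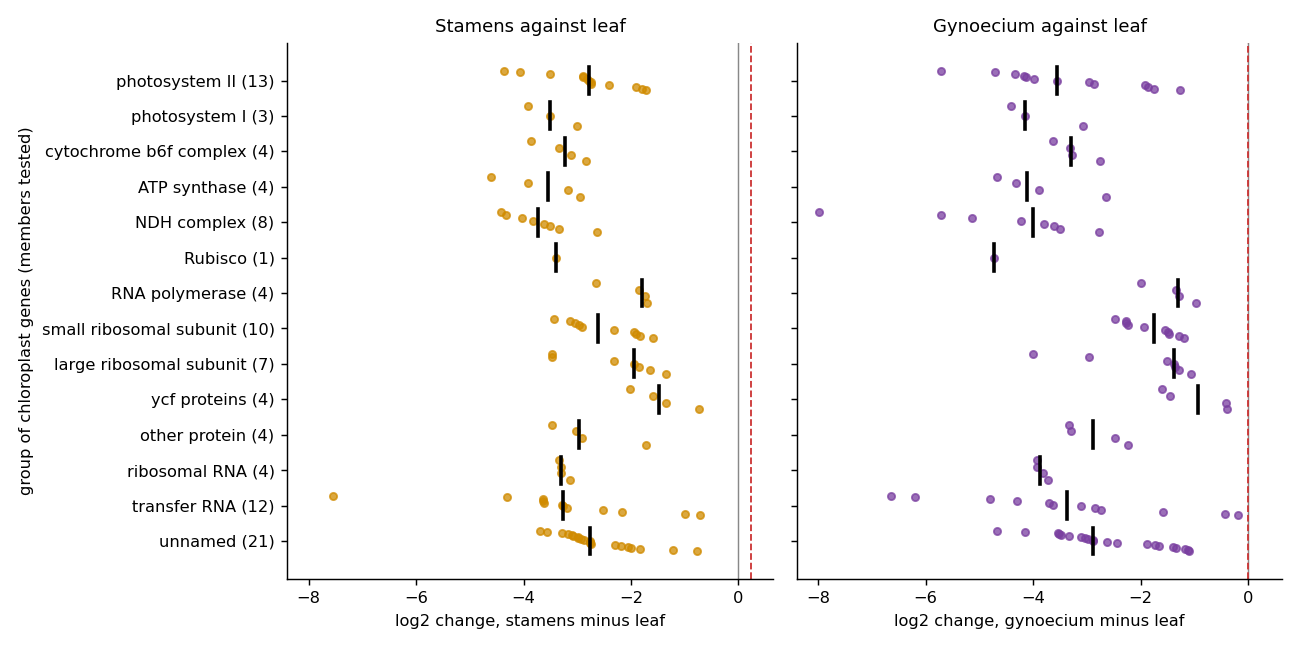
Log2 change of every tested chloroplast gene (points) by group, stamens minus leaf on the left and gynoecium minus leaf on the right, on TMM-scaled counts. Black bars are group medians, the grey line is 0 and the dashed line is the median of all genes tested. The photosynthesis groups sit farther left than the RNA polymerase, ribosomal and ycf groups, more so in gynoecium.

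The fall was deeper for photosynthesis genes. In gynoecium against leaf, the median log2 change was -3.80 for the 33 tested photosynthesis genes and -1.49 for the 21 tested expression genes, a difference of -2.31 or 4.94-fold. With ndhK set at the bound that its counts allow, the photosynthesis median was -3.76. Of the 33, 32 lay below the median of the expression genes, and the one above it was psbZ. In stamens against leaf the medians were -3.34 and -1.94, a difference of -1.40 or 2.64-fold, with 30 of 33 below. The difference between the classes was the same to 2 decimals under each of the scalings tried, since a scaling moves all genes together.

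Photosystem II, which oxidises water, had 14 members, of which 13 were tested. Their median change was -2.79 in stamens and -3.56 in gynoecium. ATCG00020 (psbA or psbD) stood at 161, 175 and 175 CPM in the leaf libraries, 11.6, 10.1 and 8.50 in stamens and 3.56, 3.45 and 2.77 in gynoecium. The tissues did not overlap, and it was 16.8-fold lower in stamens (log2 change -4.07 ± 0.07 SE, adjusted p = 1.7e-51) and 52.2-fold lower in gynoecium (-5.71 ± 0.08, adjusted p = 3.0e-56). The other locus of that length, ATCG00270, was 11.4-fold and 18.0-fold lower. psbB encodes CP47, an inner antenna protein. It stood at 776, 797 and 784 CPM in leaf, 112, 112 and 111 in stamens and 30.0, 27.2 and 32.8 in gynoecium, with no overlap between any pair of tissues. psbC encodes the related antenna protein CP43, and its floral values overlapped: 110.5, 113 and 115 CPM in stamens and 118, 113 and 115 in gynoecium, against 823 to 861 in leaf. The smallest falls were all of small subunits. psbI was 3.28-fold lower in stamens and 3.35-fold lower in gynoecium, psbK 3.76-fold and 3.78-fold, and psbZ 3.47-fold and 2.41-fold. Not all small subunits did so: psbM was 20.5-fold and 20.3-fold lower.

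Photosystem I had 3 named members. psaA stood at 30078, 29199 and 30013 CPM in leaf, 3634, 3776 and 3673 in stamens and 1405, 1409.9 and 1407 in gynoecium. It was the most abundant chloroplast gene in every library by count, 8.06-fold lower in stamens than in leaf (log2 change -3.01 ± 0.03, adjusted p = 2.1e-65) and 21.1-fold lower in gynoecium (-4.40 ± 0.03, adjusted p = 2.9e-72). psaB was 11.3-fold and 17.7-fold lower, and psaJ, a small subunit with 44 to 61 counts in a leaf library and 3 to 14 in a floral one, 15.1-fold and 8.45-fold.

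The cytochrome b6f complex carries electrons between the photosystems. Its 4 named members had medians of -3.23 in stamens and -3.30 in gynoecium. petA, the cytochrome f gene, stood at 1702 to 1747 CPM in leaf, 166 to 178 in stamens and 132 to 142 in gynoecium. petB, for cytochrome b6, was 7.13-fold and 9.95-fold lower.

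The chloroplast ATP synthase uses the proton gradient to make ATP. In its catalytic head, atpA was 9.07-fold lower in stamens and 14.8-fold lower in gynoecium, and atpB 15.2-fold and 20.0-fold lower. atpE, of the rotor stalk, was 24.3-fold and 25.4-fold lower, with 934 to 1117 CPM in leaf and 36.3 to 47.6 across the floral libraries. atpI, a membrane subunit, fell least of the 4: 7.68-fold in stamens and 6.23-fold in gynoecium. atpB and atpE overlap by 4 bases on one strand.

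The NDH complex passes electrons around photosystem I, and its 8 named genes had the lowest median of the multi-gene protein groups in stamens, at -3.72, with -4.01 in gynoecium. ndhJ stood at 132, 133 and 134 CPM in leaf, 6.14, 6.89 and 5.67 in stamens and 2.56, 2.86 and 2.20 in gynoecium. It was 21.3-fold lower in stamens and 52.3-fold lower in gynoecium without overlap. ndhC was 20.1-fold and 35.3-fold lower, ndhF 16.3-fold and 18.7-fold, and ndhH the least, 6.17-fold and 6.87-fold. ndhK had 20, 34 and 19 counts in leaf, 4, 0 and 2 in stamens and 0 in all 3 gynoecium libraries. Set against the limit of 3 counts per library that a count of 0 allows, it was at least 13.5-fold lower in gynoecium than in leaf. It entered the test only through its leaf counts. With ndhK at that bound the group median in gynoecium was -3.78. Limits and intervals of this kind cover counting error only.

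rbcL encodes the large subunit of Rubisco, the enzyme that fixes carbon dioxide. It stood at 137, 149 and 135 CPM in leaf, 13.3, 14.0 and 12.8 in stamens and 5.66, 4.27 and 5.96 in gynoecium. It was 10.5-fold lower in stamens (log2 change -3.39 ± 0.07, adjusted p = 6.3e-49) and 26.4-fold lower in gynoecium (-4.72 ± 0.07, adjusted p = 1.8e-54).

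The genes of the plastid-encoded RNA polymerase fell far less. rpoB, the catalytic beta subunit, stood at 111, 113 and 111 CPM in leaf, 34.1, 33.9 and 32.0 in stamens and 58.3, 57.5 and 56.8 in gynoecium. It was 3.35-fold lower in stamens (log2 change -1.75 ± 0.05, adjusted p = 3.9e-39) and 1.94-fold lower in gynoecium (-0.96 ± 0.05, adjusted p = 6.3e-28). rpoC1 and rpoC2, which make up the beta prime part, were 3.27-fold and 3.61-fold lower in stamens and 2.42-fold and 2.54-fold lower in gynoecium. rpoA, for the alpha subunit that assembles the enzyme, fell most of the 4, 6.29-fold and 3.95-fold. In every one of the 4, stamens lay below gynoecium and gynoecium below leaf in all libraries.

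Most ribosomal protein genes also lay lowest in stamens, over a wider range. The 10 tested genes of the small subunit had medians of -2.61 in stamens and -1.74 in gynoecium, and the 7 of the large subunit -1.94 and -1.38. rps4, which binds 16S RNA early in assembly, was 3.01-fold and 2.27-fold lower, and rpl16 3.60-fold and 2.09-fold. rpl20 fell least in stamens, 2.54-fold, and was 2.84-fold lower in gynoecium, the reverse of that order with TMM. The order of the organs for rpl20 turned by library totals (log2 change, stamens minus gynoecium, -0.25, adjusted p = 4.9e-05), and by upper quartile factors they were not called apart (0.015, adjusted p = 0.80). rpl33 and rpl32 departed from the rest: rpl33 was 11.1-fold and 7.83-fold lower, and rpl32, with 25 to 75 counts in leaf and 1 to 10 in floral libraries, 11.1-fold and 16.1-fold. The gynoecium value of rpl32 was 30.9-fold without gynoecium replicate 3 and 11.3-fold to 19.7-fold without any other single library.

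In gynoecium the longer ycf1 locus stood nearest to leaf among genes of more than 100 CPM in leaf. It had 1101, 1067 and 1087 CPM in leaf, 430.3, 414 and 434 in stamens and 825, 835 and 802 in gynoecium. It was 2.55-fold lower in stamens (log2 change -1.35 ± 0.03, adjusted p = 1.9e-44) and 1.32-fold lower in gynoecium (-0.40 ± 0.03, adjusted p = 1.4e-18). Scaled by library totals alone, the gynoecium value turned to 0.24 higher than leaf on the log2 scale, so its direction against leaf depends on the scaling. Under that scaling all 3 members called higher than leaf were this locus, trnS ATCG00290 (log2 change 0.22) and ATCG00390 (0.46), against 0 with TMM. The pair of ycf2 loci in the repeat, for a subunit of the motor of the import apparatus, was 3.02-fold to 4.03-fold lower in stamens and 2.72-fold to 3.05-fold in gynoecium.

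The other proteins spread between these classes. accD, a subunit of the acetyl-CoA carboxylase that starts fatty acid synthesis, stood at 259, 266 and 272 CPM in leaf, 83.8, 79.4 and 79.4 in stamens and 47.4, 48.0 and 47.7 in gynoecium. It thus fell 3.29-fold in stamens and 5.57-fold in gynoecium without overlap. clpP, the proteolytic subunit of the stromal Clp protease, went the other way between the organs, 7.52-fold and 4.70-fold lower. cemA, of the envelope membrane, was 8.12-fold and 9.79-fold lower, and ccsA, which attaches heme to cytochromes, 11.1-fold and 10.1-fold.

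Ribosomal RNA took only 0.332, 0.254 and 0.218% of the chloroplast counts in leaf, stamens and gynoecium. These low shares describe what the libraries captured. The 4 tested loci had medians of -3.30 and -3.87. The 23S copies had 81.4 to 151 CPM in leaf, 6.16 to 15.3 in stamens and 5.63 to 9.34 in gynoecium, and their reads cannot be split between copies with certainty. Of 12 tested transfer RNA loci, 12 were lower in stamens and 11 in gynoecium, against 37.9 and 40.0% of all genes tested. The range was wide, from trnS ATCG00290, 1.64-fold lower in stamens and 1.34-fold in gynoecium, to ATCG01200, with 74, 65 and 68 counts in leaf and never more than 2 in a floral one. The ratio of leaf to gynoecium there was 116, with a 95% counting interval of 39.0 to 565. ATCG01200 and trnY entered the test only through their leaf counts.

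Stamens against gynoecium split the members. With TMM scaling 35 of the 99 were higher in stamens, 32 were lower and 32 passed in neither direction. Over all genes tested 85.3% were called, 46.3% higher and 39.0% lower, and the higher share of all calls went from 54.3% with TMM to 39.8% with library totals. The split of the members turned with the scaling: library totals alone gave 18 higher and 58 lower, and upper quartile factors 28 and 39. The order of the classes cannot turn with a scaling, which moves all genes together, so its constancy is no support. The photosynthesis median lay 0.78 (log2) above the expression median, and 31 of 33 photosynthesis genes lay above the expression median. Of the 21 expression genes, 16 were lower in stamens by TMM, 18 by library totals and 17 by upper quartile factors. Of the 33 photosynthesis genes, 19 were higher and 3 lower by TMM, 13 and 17 by library totals, and 16 and 7 by upper quartile factors.

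**Figure D3:**
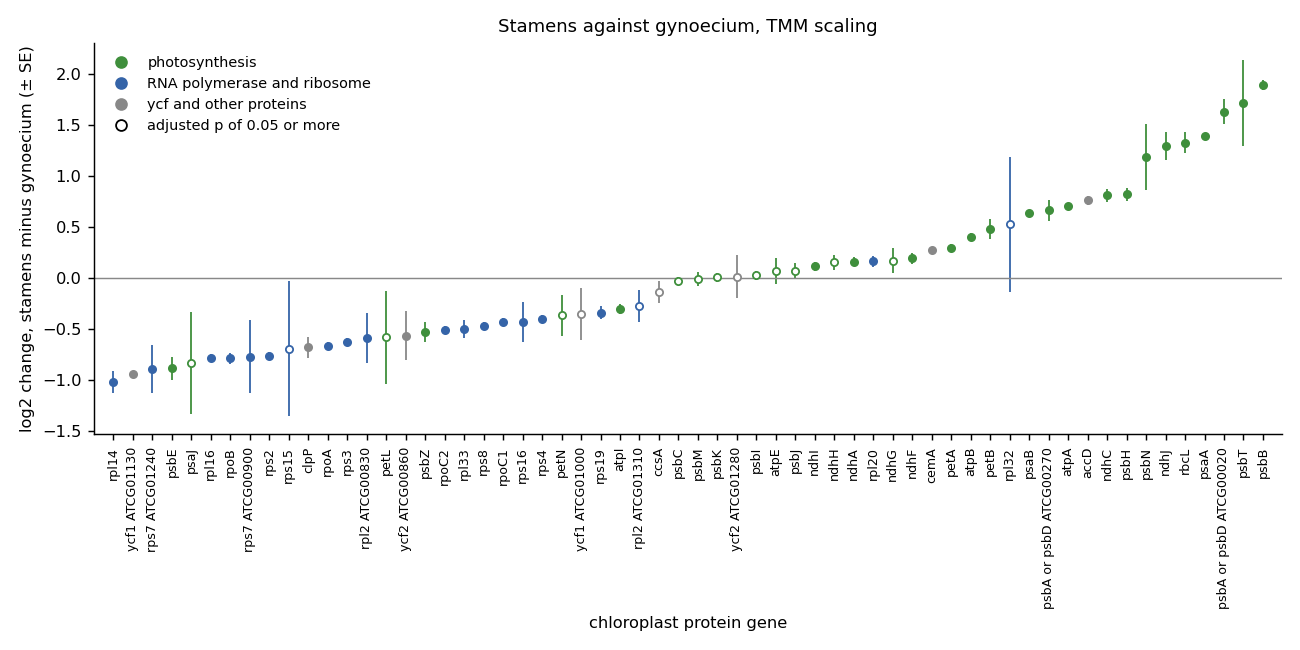
Log2 change, stamens minus gynoecium, with its standard error, for chloroplast protein genes with a standard error under 1, on TMM-scaled counts. Green marks photosynthesis, blue the RNA polymerase and ribosome, grey ycf and other proteins, and open symbols an adjusted p of 0.05 or more. With library totals alone, values near 0 such as those of psbK, atpE or ndhF turn negative, while psbB, psaA and rbcL stay above 0 and the polymerase genes below it.

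Apart from ndhK and trnY, which have few counts, the highest values were those of psbB and psbT. psbB, psbT, psbH and petB lie in one transcription unit, with psbN on the other strand between them. psbB was 3.72-fold higher in stamens than in gynoecium (log2 change 1.89 ± 0.05, adjusted p = 2.8e-43), and 1.48 on the log2 scale by library totals. psbT, a small photosystem II subunit with 13 to 17 counts per stamen library and 5 to 7 in gynoecium, was 3.28-fold higher, psbN 2.28-fold and psbH 1.77-fold. petB, the last of these along the unit, was 1.40-fold higher, and by library totals it was not called (log2 change 0.07, adjusted p = 0.50). Point values thus declined from psbB to petB, although psbB and psbT did not differ beyond the standard error of 0.42 for psbT. psbN, with a standard error of 0.33 by library totals, was not clearly set apart from psbT or psbH either. ATCG00730 (petD or rpl22), the next identifier after petB, has no unique length and is left out of this order.

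Apart from that cluster, ATCG00020 was 3.10-fold higher in stamens, psaA 2.63-fold, rbcL 2.51-fold and ndhJ 2.46-fold. By library totals their log2 changes were 1.22, 0.98, 0.92 and 0.89, and all remained called. psaB was 1.56-fold higher by TMM, with 0.23 on the log2 scale by library totals. trnY had 1, 3 and 4 counts in stamens and 0, 1 and 0 in gynoecium, a ratio of 10.9 with a 95% counting interval of 1.47 to 485, and its call was lost in 2 alternatives (adjusted p = 0.050 and 0.063). Without gynoecium replicate 2, which holds the 1 gynoecium count, its fitted log2 change was 4.54 in place of 2.95. For ndhK both organs were near the limit of detection, and no fold is given.

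In the other direction, the longer ycf1 locus was 1.93-fold lower in stamens than in gynoecium (log2 change -0.95 ± 0.03, adjusted p = 3.5e-36) and rpl14 2.03-fold. rpl16 and rpoB were each 1.72-fold lower, rps2 1.70-fold and rpoA 1.59-fold. Among photosynthesis genes, psbE, for a cytochrome b559 subunit, was 1.85-fold lower, psbZ 1.44-fold and atpI 1.23-fold. ATCG00400, a locus of 86 bases with no named gene of that length, was 2.31-fold lower, with stamen libraries at 1.85 to 2.20 CPM and gynoecium libraries at 4.11 to 5.81.

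Levels between genes were compared per length, in FPKM. In leaf psaA led with 10783 ± 172 (SD, n = 3), ahead of the unnamed ATCG00450 of 75 bases at 5937, psaB at 4288, psbM at 3458 and cemA at 2938. In stamens psaA still led, at 1574, followed by ATCG00450 at 914, psbI at 830.3, ATCG00760 (petG, psaI or rpl36) at 788 and psbK at 582. In gynoecium the order changed: ATCG00760 led with 1262, then psbI with 1084, ATCG00450 with 1081, psaA with 797 and psbK with 769.8. The values of psbI and ATCG00450 overlapped there, at 1047.5 to 1150.1 and 1031.2 to 1117.5. The median member had 131, 17.0 and 25.1 FPKM in leaf, stamens and gynoecium. FPKM is scaled by library totals, and with TMM the median log2 change of the tested members, stamens minus gynoecium, was -0.016. rbcL, at 79.6, 8.89 and 4.69 FPKM, lay below the median member in all 3 tissues. Loci shorter than a sequenced fragment have levels per length that rest on few possible read positions.

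Neighbours differed widely. Among 28 pairs of uniquely named genes that follow each other on one strand, some with other loci between them, 14 differed at least 4-fold in leaf FPKM and 8 by less than 2-fold, with a median of 4.51-fold. Some ratios were alike across tissues. rpoC1 to rpoC2 was 1.29, 1.43 and 1.36 in leaf, stamens and gynoecium, and rps3 to rpl16 was 1.01, 0.964 and 0.863. Others shifted: rbcL to accD went from 0.538 in leaf to 0.168 in stamens and 0.113 in gynoecium, and rps2 to atpI from 1.01 to 1.56 and 2.15. ndhJ to rps4 moved farthest, from 0.519 to 0.0732 and 0.0225, and psbC to psbZ, both of photosystem II, from 3.70 to 1.72 and 1.22. These 4 were the pairs whose ratio moved at least 2-fold between tissues, out of 24 with both genes tested and counts in every tissue. Of the 7 pairs that join different classes (photosynthesis, expression or other) 3 moved so, and of the 17 within a class 1 did. The photosynthesis and expression classes moved apart in these same libraries, so this tally is no separate result. psaJ to rpl33, which joins classes, had 0.0534, 0.0382 and 0.0494.

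Within a run of highly covered genes, some genes were almost without counts. rps14, for a small-subunit ribosomal protein, follows psaB and had 2.28 FPKM in leaf beside 4288. ndhK lies between ndhC, at 1673, and ndhJ, at 228, and had 2.13. psbL had 2.57 beside psbJ with 826. In stamens and gynoecium these 3 genes were lower still, at 0 to 0.920 FPKM on average. These are values as counted by the authors, and the part of the counting (reads with several matches, strand) in them was not tested.

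**Figure D4:**
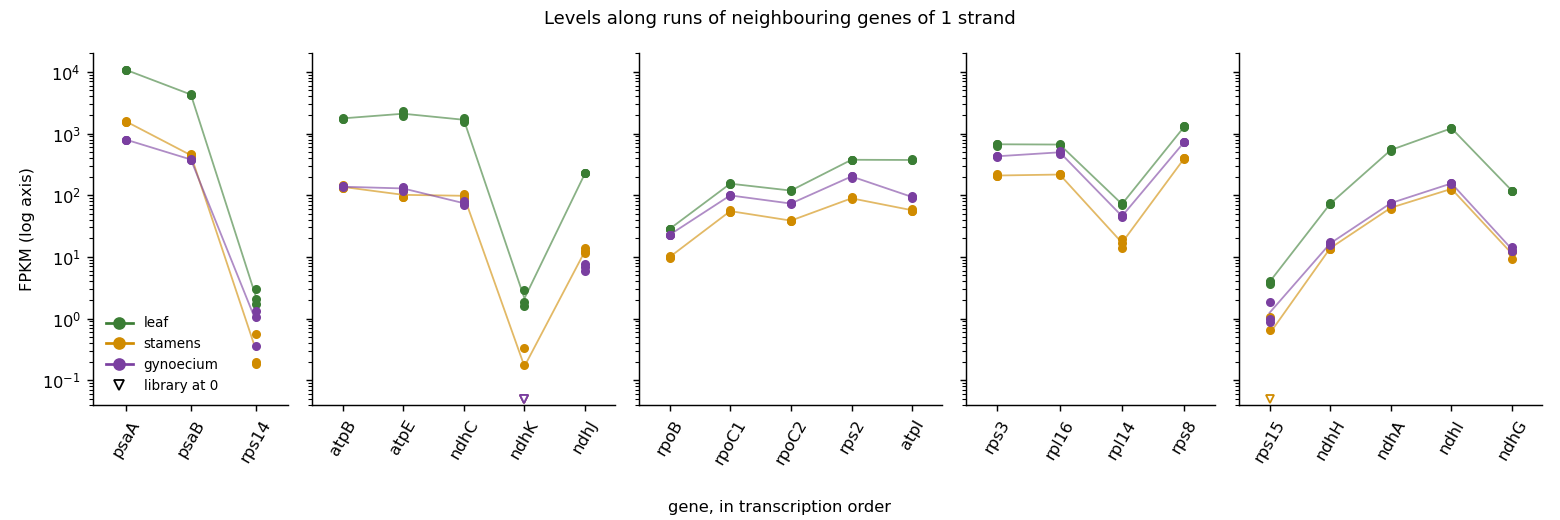
FPKM on a log axis along 5 runs of uniquely named genes in transcription order, chosen after their values were seen, with a point per library and lines through tissue means. Open triangles mark libraries at 0, drawn at the foot of the axis, where those of stamens and gynoecium coincide at ndhK. The dips at rps14, ndhK and rpl14 recur in leaf, stamens and gynoecium, and in the rpo and rps runs gynoecium lies between leaf and stamens.

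Other subunits of these complexes, and further proteins of plastid transcription and RNA processing, are encoded in the nucleus. Of such nuclear partner genes 111 were examined, of which 107 were tested. Over all 20827 genes tested with TMM, 37.9% were lower in stamens than in leaf and 40.0% in gynoecium than in leaf. Between the floral organs 46.3% of all genes were higher in stamens and 39.0% lower. The 42 nuclear subunits of the photosystems, cytochrome b6f complex, ATP synthase and NDH complex and of Rubisco tested were all lower than leaf in both organs, with medians of -4.41 in stamens and -4.10 in gynoecium. For the plastid-encoded photosynthesis genes the medians were -3.34 and -3.80. Nuclear Rubisco small subunits (4 genes) had medians of -7.10 and -6.25, beside -3.39 and -4.72 for rbcL. The 20 nuclear plastid ribosomal proteins were all lower as well, at -3.20 and -2.23, and 18 of them were lower in stamens than in gynoecium, as were 12 of the 17 tested plastid-encoded ones. Between the floral organs, 9 nuclear photosynthesis subunits were higher in stamens, 25 were lower and 8 did not pass the test. By library totals the split was 4, 35 and 3, and by upper quartile factors 6, 27 and 9. Of all calls between the organs, 39.8% were higher in stamens by library totals. The largest difference among these nuclear subunits was that of PSBO2, a subunit of the oxygen-evolving complex, with 26.2 ± 0.969 CPM in stamens and 1.44 ± 0.229 in gynoecium.

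RPOTP, the phage-type polymerase of plastids, averaged 16.5 ± 1.69 CPM in leaf, 40.5 ± 2.77 in stamens and 36.9 ± 3.15 in gynoecium. RPOTMP, which serves plastids and mitochondria, averaged 5.49 ± 0.811, 19.0 ± 0.403 and 17.8 ± 0.879. Both were higher than leaf in both organs, by 1.29 and 1.80 (log2) in stamens and 1.16 and 1.70 in gynoecium, and neither was called between stamens and gynoecium with TMM, while both were lower in stamens by library totals. Sigma factors guide the plastid-encoded polymerase to promoters. Of the 6, 5 were lower than leaf in both organs, against 37.9% (stamens) and 40.0% (gynoecium) of all genes tested. SIG5, known to respond to light and stress, was the exception, at 9.68 ± 0.908 CPM in leaf, 32.8 ± 1.81 in stamens and 15.8 ± 0.787 in gynoecium. Of 13 proteins bound to that polymerase, 10 were lower in stamens than in leaf and 3 were not called, with 10 lower and 2 higher by library totals. In gynoecium 4 were higher, 5 lower and 4 not called with TMM, but 10 were higher and 3 lower by library totals. No direction is given for them, since by library totals 67.3% of all calls in gynoecium against leaf were higher. Between the organs, 11 of the 13 were lower in stamens, against 39.0% of all genes tested.

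Proteins of plastid RNA splicing, editing and stability were mostly lower in floral organs. Of 24 tested, 23 were lower in stamens and 21 in gynoecium, or 21 and 14 by library totals, which also put 6 higher in gynoecium. Over all genes tested with TMM, 37.9 and 40.0% were lower. By library totals 67.3% of all calls in gynoecium against leaf were higher. MORF8, an editing factor of plastids and mitochondria, was higher in both floral organs, with 58.5 ± 2.84 CPM in leaf, 83.6 ± 2.54 in stamens and 152 ± 2.34 in gynoecium. HCF107, which binds the psbH leader and affects psbH and psbB, averaged 40.1 ± 2.11 in leaf, 30.0 ± 0.219 in stamens and 64.7 ± 0.426 in gynoecium. It was higher than leaf in gynoecium and lower in stamens.

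**Figure D5:**
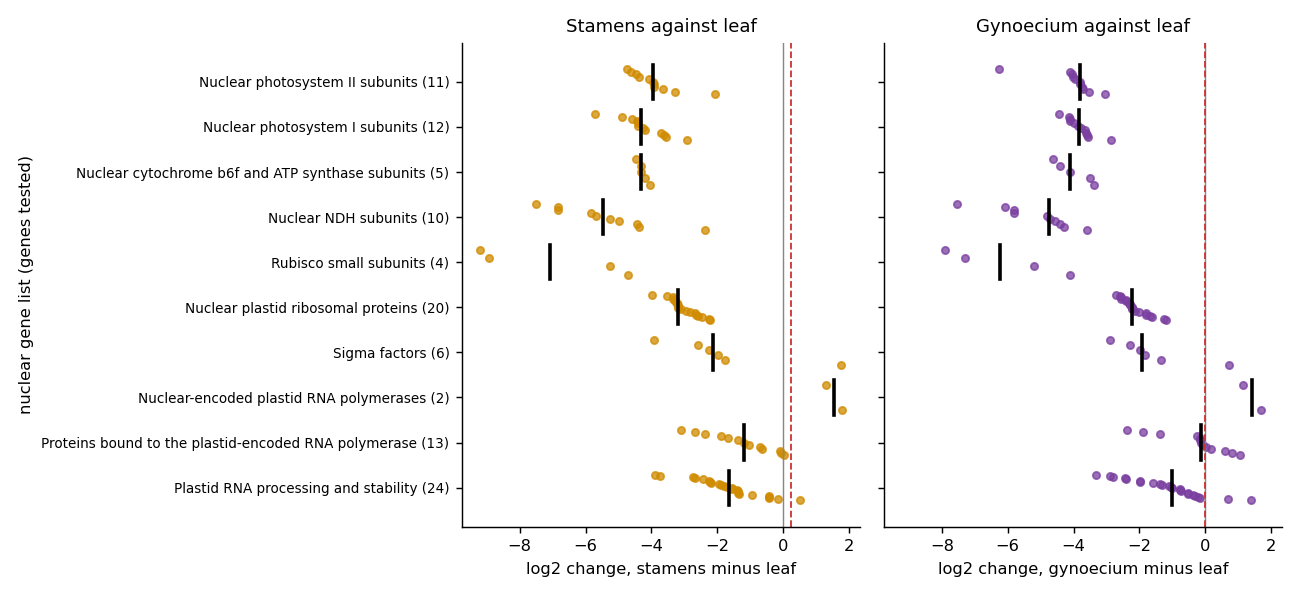
Log2 change against leaf of nuclear genes (points) by list, stamens on the left and gynoecium on the right, on TMM-scaled counts. Black bars are list medians, the grey line is 0 and the dashed line is the median of all genes tested. Subunits of the photosynthetic complexes lie farthest left, and the pair of nuclear-encoded polymerases and SIG5 lie to the right of 0 in both panels.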

How the data were processed

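There were 3 libraries per tissue, and the labels give the molecule as total RNA. The deposited tables hold whole-number read counts per locus and FPKM per locus, made by the authors. The submitters' processing notes name Bowtie2 2.2.3, HISAT2 2.1.0, TopHat2, HTSeq 0.6.0 and the TAIR10 genome without saying how each was used. Here counts were tested with edgeR 4.0.16 in R 4.3.3 (quasi-likelihood, robust, TMM factors, filterByExpr), one mean per tissue over all 9 libraries, with Benjamini-Hochberg adjustment over 20827 genes. The scripts were tested on simulated data. Gene names came from exact lengths (count over FPKM) and the reference annotation of TAIR10.1: of 60 uniquely matched loci, 0 pairs lay out of the reference order. Reference positions and strands served for the order check, the neighbours and the overlaps. No coordinates or sequences are printed, since the build names differ. By rule, 53 genes were named: the extremes of each group and of stamens minus gynoecium, the highest FPKM and a set of well-known genes. A further 12 (psbE, psbH, psbJ, psbN, ndhC, rps2, rps3, rpl33, ATCG00270, ATCG00290, ATCG00390 and ATCG01200) were chosen after their values were seen. Of 113 nuclear entries 2 were left out for want of a match. The genes and lists were chosen with earlier results of these data known. Alternatives used other scalings, filters, DESeq2 1.42.0, limma 3.58.1 on log2(FPKM + 1) and log2(FPKM + 0.1), a replicate block and libraries left out in turn. TMM factors were 0.815 to 0.817 in leaf, 0.955 to 0.965 in stamens and 1.27 to 1.28 in gynoecium.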

Additional observations from a re-analysis of the deposited data

How the results depend on the processing

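The falls against leaf held throughout: over all alternatives, 94 to 106 chloroplast genes were lower in stamens with 0 higher, and 89 to 102 lower in gynoecium. With TMM, 37.9 and 40.0% of all genes tested were lower. Higher in gynoecium were 0 with TMM and 3 by library totals and by limma on FPKM with either pseudocount. Stamens against gynoecium moved with scaling: 18 higher and 58 lower by library totals, 20 and 60 by limma on log2(FPKM + 0.1), and 18 and 59 on log2(FPKM + 1). Library totals shifted the median of all genes by -0.37 (stamens minus gynoecium), 0.23 (stamens minus leaf) and 0.55 (gynoecium minus leaf), upper quartile factors by -0.11 in the first, and the share of calls that were higher went from 54.3 to 39.8% and, for gynoecium minus leaf, from 51.6 to 67.3%. Nuclear partners higher in stamens than gynoecium were 16 with TMM and 8 by library totals, and higher in gynoecium than leaf 9 and 19. The chloroplast share of all counts was 5.86, 0.897 and 0.917% in leaf, stamens and gynoecium without ribosomal and transfer RNA genes and 2.53, 0.453 and 0.665% without psaA and psaB, the latter chosen after seeing the data. psaA and psaB took 22.4, 17.4 and 8.05% of summed FPKM.

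Alternatives were given gene by gene for the 65 named genes. Over all 99 tested, stamens minus gynoecium turned negative for 19 of the 48 above 0 by library totals, 5 of them NDH genes, and for 8 by upper quartile factors, and 0 turned positive. Among the named genes the log2 changes turned negative by library totals, FPKM + 0.1 and FPKM + 1 for psbK (-0.40, -0.40, -0.40), psbI (-0.38, -0.38, -0.38), ATCG00450 (-0.24, -0.24, -0.24), atpE (-0.34, -0.35, -0.34), atpB (-0.0080, -0.0091, -0.0090), psbJ (-0.34, -0.34, -0.34), cemA (-0.14, -0.14, -0.14), petA (-0.11, -0.11, -0.11), rpl20 (-0.25, -0.25, -0.25), ndhF (-0.22, -0.22, -0.21), ndhH (-0.26, -0.26, -0.24) and ycf2 ATCG01280 (-0.40, -0.32, -0.11). By upper quartile factors psbK was -0.14, psbI -0.12, atpE -0.083, psbJ -0.081 and ycf2 ATCG01280 -0.14. psbM, which was not called, came to 0.00027 with a filter of 1 CPM in 3 libraries and 6.5e-05 in a fit of the compared libraries alone. For gynoecium minus leaf, ycf1 ATCG01000 turned to 0.25, 0.23 and 0.16, ycf1 ATCG01130 to 0.24, 0.24 and 0.24, trnS ATCG00290 to 0.22, 0.22 and 0.22 and ATCG00390 to 0.46, 0.47 and 0.46. Library totals leave out the TMM factors and so move all genes by nearly one amount. The cause for psbM was not tested.

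Leaving out libraries in turn gave 33 to 37 higher and 29 to 33 lower in stamens than gynoecium. With all libraries, 46.3% of all genes tested were higher and 39.0% lower. The log2 change of stamens minus gynoecium then crossed 0 for psbK (-0.045 to 0.071), psbM (-0.049 to 0.056), psbC (-0.039 to 0.0040), atpE (-0.017 to 0.13) and ycf2 ATCG01280 (-0.079 to 0.12), none of which was called with all libraries. The labels do not say whether replicate numbers pair libraries. Deviations of same-numbered libraries had correlations from -0.052 to 0.054 over 9 pairs. No shared deviation was seen, which cannot settle whether the libraries were paired. With the replicate block the counts were 35 higher and 31 lower, 99 lower in stamens than leaf and 97 lower in gynoecium.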
